A study of Mus musculus with 18 samples.

Results

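The 12 lesion arrays were set against 6 arrays of non-neoplastic mucosa to find genes that lesions of the mouse colorectum share and that neither healthy nor acutely inflamed mucosa shows. Arrays were assigned to groups by their pathological label, and all 18 of the 18 arrays of the series belong to this comparison. The choice of this comparison and of the gene lists was made with earlier results of these data known. Every sample was RNA from the colorectum of a male ICR mouse, an outbred stock, taken into the study at 6 weeks of age and hybridised to an Affymetrix Mouse Genome 430 2.0 array. No genotype or transgene separates the groups. The 3 normal arrays came from mice that received saline and plain water, sampled on day 14. The 3 inflamed arrays came from mice that received azoxymethane (AOM, a carcinogen that acts on the colon) at 10 mg/kg on day 1 and dextran sulfate sodium (DSS, which injures the colonic epithelium) at 2% on days 8 to 14, sampled on day 14. The 12 lesion arrays carried the same AOM injection and first DSS cycle. They comprised 3 low grade dysplasias (LGD) of day 28, 3 high grade dysplasias (HGD) of day 42 after another DSS cycle of 1.5% on days 29 to 33, 3 high grade dysplasias with active inflammation of day 56 after DSS cycle 3 at 1.5% on days 50 to 54, and 3 adenocarcinomas of day 140 after the same 3 cycles. Replicates are described as biological, and the labels do not say how much muscle or stroma each piece held or whether mice were pooled.

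All non-neoplastic mucosa dates from day 14 and all lesions from day 28 or later, so lesion and time since the start cannot be told apart. Normal mice had neither AOM nor DSS. Inflamed mucosa shares AOM and the first DSS cycle with the lesions and is the closer control for treatment. Normal mucosa was closer to the lesions in the epithelial and neutrophil genes given below, but not in the smooth muscle genes. The same 12 lesion arrays enter both comparisons. In whole tissue, fewer cells of a type and less RNA per cell cannot be told apart.

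Tumours of this model are known to arise through activation of Wnt/beta-catenin signalling. In that pathway Wnt ligands, or mutations of its core proteins, stabilise beta-catenin, which enters the nucleus and joins TCF/LEF factors on DNA. Its targets include genes that feed back on the pathway (Axin2, Notum, Wif1, Apcdd1), and genes that in healthy gut belong to crypt base and Paneth cells. Sterol synthesis is a separate programme, in which the factor encoded by Srebf2 raises the enzymes that lead from acetyl-CoA through mevalonate to cholesterol. Enteric neurons, endocrine cells and smooth muscle belong to healthy colonic tissue and are background to what an epithelial lesion could displace.

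The TCF/LEF words CTTTGAT and CTTTGAA, read on either strand, were looked for in the 250 bases before the start site of each gene, using RefSeq sequences of build GRCm38.p6. Of 20 genes searched for this, which were the largest or the Wnt-listed increases, 15 had a window, and the sequences below are those chosen because they hold the word. They are Defa31, a Paneth cell defensin on chromosome 8, Spock2, a secreted proteoglycan gene on chromosome 10, and Sp5, a transcription factor gene that Wnt signals induce, on chromosome 2. Their windows are chr8:21191323-21191572, chr10:60106007-60106256 and chr2:70474673-70474922, all on the plus strand, and each ends at the base before the annotated start. Capitals mark the word, which reads ATCAAAG where it lies on the opposite strand.

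Defa31: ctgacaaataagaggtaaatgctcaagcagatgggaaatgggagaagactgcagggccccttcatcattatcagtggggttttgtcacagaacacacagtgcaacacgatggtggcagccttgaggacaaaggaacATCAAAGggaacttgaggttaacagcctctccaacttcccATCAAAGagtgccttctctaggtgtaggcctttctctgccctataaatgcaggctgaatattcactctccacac
Spock2: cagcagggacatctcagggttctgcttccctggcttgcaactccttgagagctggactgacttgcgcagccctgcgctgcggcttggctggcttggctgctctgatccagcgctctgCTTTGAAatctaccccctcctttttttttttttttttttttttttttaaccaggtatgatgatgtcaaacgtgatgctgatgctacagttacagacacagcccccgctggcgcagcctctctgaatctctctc
Sp5: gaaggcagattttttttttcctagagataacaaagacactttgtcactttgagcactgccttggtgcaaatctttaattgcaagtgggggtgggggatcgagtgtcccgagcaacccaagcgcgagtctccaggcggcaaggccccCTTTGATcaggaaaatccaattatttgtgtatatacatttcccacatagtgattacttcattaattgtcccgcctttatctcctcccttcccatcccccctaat

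Defa31 held the word at 2 places, beginning 114 and 74 bases before the start. Spock2 held it 133 and Sp5 104 bases before. A window was found for 10334 of the 12877 genes measured, and 6.74% of these held the word. Among the genes higher in lesions than in both mucosae (defined below) the share was 9.9% (19 of 192 with a window), among the lower genes 7.63% (10 of 131), and on the Wnt list 20% (3 of 15). None of the 6 windows of genes that passed by the stricter rule held it (0 of 6). Windows of 2 further genes with the word were left out because they lie after another start of the same gene. The HNF4 word CAAAGTCCA, present in 0.494% of all windows, was in 0 of the windows of higher or lower genes. The SREBP word TCACNCCAC was in 1.29% of all windows and in 1 of the 10 windows of sterol genes. A match describes the letters and is not a measured site.

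The deposited signals were compared as log2(signal + 16), a scale on which a difference of 1 is 2-fold for bright genes and less than the true fold for dim ones. Array medians lay between 55.7 and 57.8 signal units. Markers were then set against the tissue labels. The summed signal of 16 general epithelial genes was 65200 to 68700 in normal, 49600 to 77000 in lesion and only 1380 to 29300 in inflamed arrays, and that of 15 neutrophil genes was 687 to 744 in normal, 1250 to 62600 in lesion and 37300 to 72700 in inflamed arrays. A gene restricted to epithelium is therefore low in inflamed mucosa, and only its difference from normal mucosa bears on lesions alone. On LGD replicate 2 the 3′ to 5′ signal ratio of the Gapdh control probes was 1.63 on the log2 scale, against -0.075 to 0.155 on the others. Without this array 3 genes passed by the stricter of the rules below (against 7), 311 by the lenient rule (against 402) and 1339 against normal mucosa (against 1614).

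Among the lesion arrays, LGD replicate 3 and the 8-week HGD replicate 1 stood apart. Their mean over 23 Wnt-listed genes, taken as the log2 difference from the normal group, was 0.23 and -0.13. The other 10 lesion arrays lay between 1.26 and 2.96, the normal arrays between -0.02 and 0.03 and the inflamed arrays between -0.24 and -0.18. On this list, then, these 2 arrays resembled non-neoplastic mucosa although both are labelled as dysplasia. Both stay in the main values. Main counts of genes are also given without 1 or both of them, whereas differences of single genes include them. Because they were singled out by their values, the counts without them are a description and not independent evidence.

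**Figure D1:**
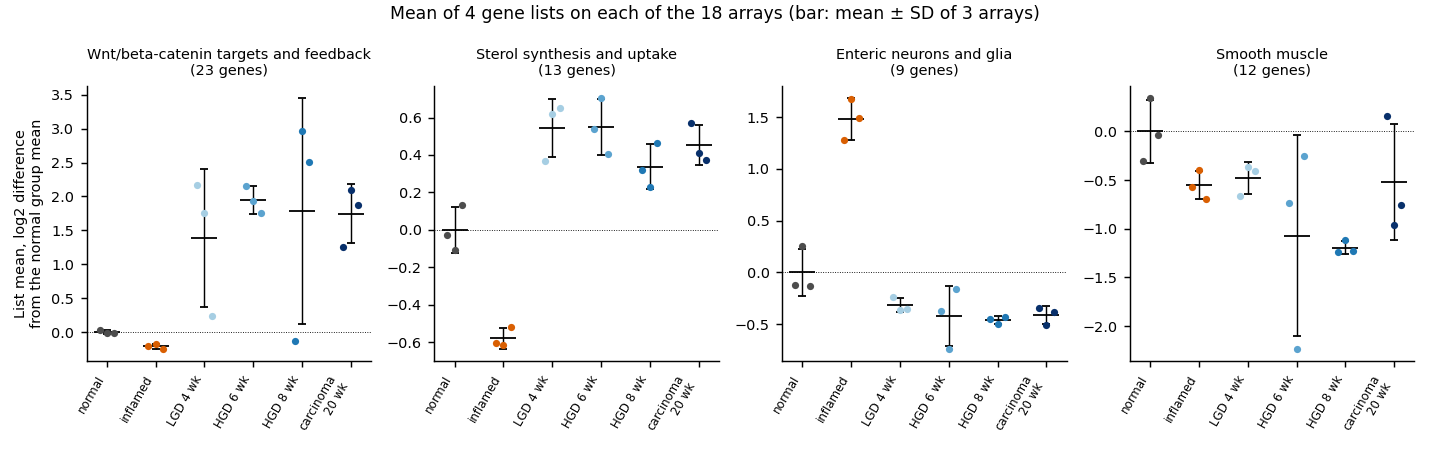
Mean of 4 gene lists on each of the 18 arrays, as the log2 difference from the mean of the normal arrays; points are arrays and bars are the mean ± SD of 3 arrays. Wnt targets were between 1.26 and 2.96 on 10 lesion arrays and 0.23 and -0.13 on the other 2, whereas sterol genes were above normal mucosa on all 12.

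Lesions as a group were first compared with each mucosa separately, using limma over 12877 genes with Benjamini-Hochberg adjustment and a threshold of 0.05. Against normal mucosa 734 genes were higher (5.7%) and 880 lower (6.83%). Against inflamed mucosa 3510 were higher (27.3%) and 3063 lower (23.8%), together 51% of all genes. Against all 6 non-neoplastic arrays taken as the mean of both groups, 2261 were higher (17.6%) and 2046 lower (15.9%). That last comparison does not separate a lesion change from the loss of an inflammatory one, so the sections that follow ask for a difference from both mucosae in the same direction. Over all genes the median difference was 0.01 from normal and 0.03 from inflamed mucosa.

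A stricter and a more lenient rule were used. The stricter took the larger of a gene's 2 p-values and adjusted it over all genes, and 7 genes passed, 3 higher (0.0233% of genes) and 4 lower (0.0311%). The more lenient asked that each comparison pass its own adjustment, and 402 genes passed, 227 higher (1.76%) and 175 lower (1.36%), together 3.12% of all genes. Opposite signs were found for 552 genes (4.29%) that passed both comparisons, of which 184 (1.43%) lay above normal and below inflamed mucosa and 368 (2.86%) below normal and above inflamed. S100a9, a neutrophil calcium-binding protein, is of the first kind, with 4.97 to 6.29 in normal arrays, 13.62 to 14.47 in inflamed arrays and 8.04 to 14.38 in lesions. Both counts depend on single arrays. Without the 8-week HGD replicate 1 the stricter rule gave 200 genes and the lenient rule 750, and without LGD replicate 3 they gave 39 and 605. Leaving out a normal array lowered the lenient count to 115, 42 and 110 for replicates 1, 2 and 3, and the stricter count to 1, 1 and 3.

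**Figure D2:**
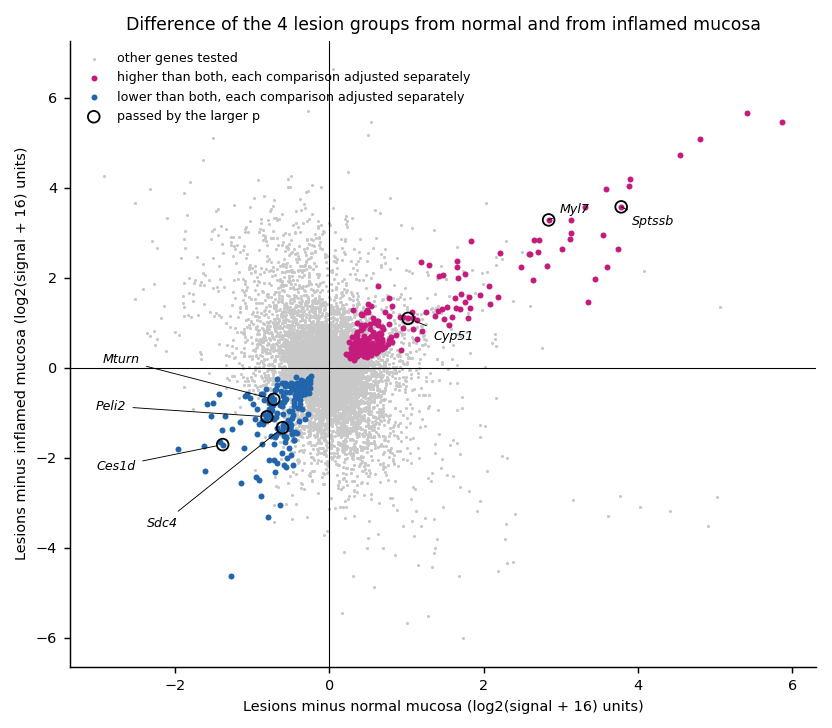
Each of the 12877 genes by its difference of lesions from normal mucosa (horizontal) and from inflamed mucosa (vertical), both in log2(signal + 16) units. The 227 higher and 175 lower genes of the lenient rule are coloured and the 7 genes of the stricter rule are circled and named; the 552 genes with opposite signs lie among the grey points of the other quadrants.

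Sptssb, Myl7 and Cyp51 were the 3 genes that rose by the stricter rule. Sptssb encodes a small subunit of serine palmitoyltransferase, the enzyme that begins sphingolipid synthesis. Its level in log2(signal + 16) was 4.59, 4.77 and 4.70 in normal arrays and 4.72, 4.80 and 5.16 in inflamed arrays. In lesions it was 8.71, 8.81 and 6.74 in LGD, 8.51, 8.29 and 9.11 in HGD at 6 weeks, 8.10, 9.14 and 8.66 in HGD at 8 weeks, and 7.88, 8.80 and 8.86 in adenocarcinoma. All 12 lesion arrays lay above all 6 others, including both arrays with low Wnt targets. The difference was 3.78 ± 0.36 (SE) from normal and 3.58 ± 0.36 from inflamed mucosa, with an adjusted p of 0.0011 by limma for the larger of both. It passed with each of the 18 arrays left out (adjusted p up to 0.0136), and a second probe set gave 1.54 and 1.38.

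Myl7 encodes a regulatory light chain of myosin best known from the heart atrium. It stood at 7.07, 6.95 and 7.55 in normal and 7.65, 5.51 and 7.08 in inflamed arrays. The lesion values were 10.15, 10.98 and 9.76 in LGD, 10.00, 10.69 and 10.24 in HGD at 6 weeks, 9.81, 10.32 and 10.12 in HGD at 8 weeks, and 9.34, 9.46 and 9.50 in adenocarcinoma. No lesion value fell into the range of the others. The difference was 2.84 ± 0.34 from normal and 3.29 ± 0.34 from inflamed mucosa (adjusted p = 0.0039, limma), and it passed in 16 of 18 fits that left out an array, with an adjusted p of up to 0.0821. The mean of 12 smooth muscle genes in lesions ran from -2.23 to 0.16 relative to normal, so these genes were not raised with it.

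Cyp51 encodes the lanosterol demethylase of cholesterol synthesis. Levels were 7.75, 7.89 and 8.00 in normal arrays, 7.84, 7.97 and 7.62 in inflamed arrays and 8.61 to 9.25 in lesions, with a lesion median of 8.96. The groups did not overlap, and the spread among the 12 lesions was narrow. Differences were 1.02 ± 0.13 from normal and 1.10 ± 0.13 from inflamed mucosa (adjusted p = 0.0039, limma). Of 18 fits without an array 16 passed, with an adjusted p of up to 0.0965. The 2 other probe sets of the gene were also higher, by 0.72 and 0.34 than normal and by 1.57 and 0.69 than inflamed mucosa.

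Sdc4, Mturn, Peli2 and Ces1d fell by the stricter rule, each with an adjusted p of 0.038 (limma). Ces1d, a carboxylesterase that handles lipids and drugs, was at 8.09, 8.12 and 8.25 in normal, 8.48 ± 0.49 (mean ± SD, n = 3) in inflamed and 6.09 to 7.53 in lesion arrays, a difference of -1.38 ± 0.21 and -1.71 ± 0.21. Peli2, a ubiquitin ligase of Toll-like receptor signalling, was at 6.80, 7.20 and 6.97 in normal, 7.11, 7.49 and 7.22 in inflamed and 5.76 to 6.64 in lesion arrays, a difference of -0.81 ± 0.13 and -1.09 ± 0.13. Mturn was at 7.08, 7.29 and 7.03 in normal, 6.99, 7.29 and 7.07 in inflamed and 6.17 to 6.72 in lesion arrays, a difference of -0.72 ± 0.11 and -0.70 ± 0.11. For these 3 genes no lesion array reached the lowest of the others.

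Sdc4 encodes syndecan 4, a cell surface proteoglycan. It was bright, at 12.31, 12.42 and 12.09 in normal arrays, rose to 12.87, 12.91 and 13.23 in inflamed arrays, and was 11.44 to 12.15 in lesions. Here 11 of 12 lesion arrays lay below all others, the exception being LGD replicate 3 at 12.15. The difference was -0.61 ± 0.10 from normal and -1.33 ± 0.10 from inflamed mucosa. Of the 18 fits without an array, Ces1d and Peli2 passed in 7 and Sdc4 and Mturn in 6, with an adjusted p of up to 0.305 for Ces1d and 0.366 for the others. Other probe sets of Peli2 differed from normal mucosa by -0.27 and -0.31, and another of Sdc4 by -0.24, so the size of these falls depends on the probe set.

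**Figure D3:**
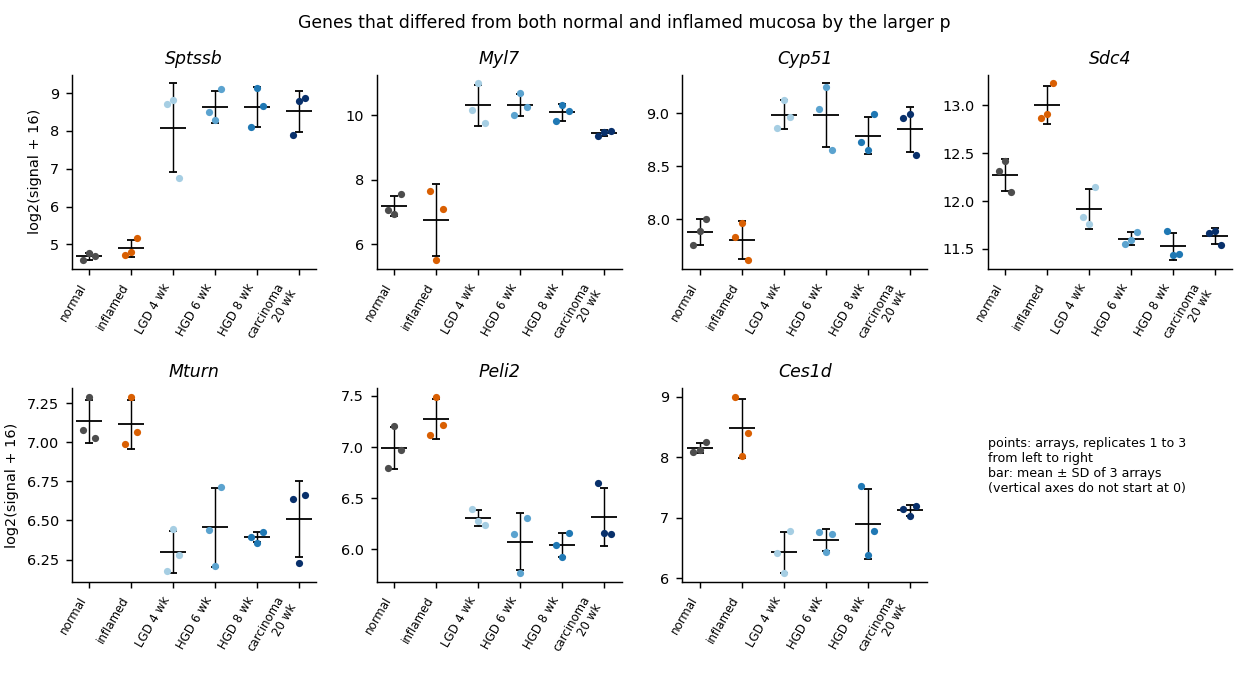
Level in log2(signal + 16) of the 7 genes that passed by the stricter rule, in 6 groups of 3 arrays (points), with the mean ± SD of each group. Sptssb, Myl7 and Cyp51 were higher in all 12 lesion arrays than in all 6 others, Mturn, Peli2 and Ces1d were lower in all 12, and Sdc4 in 11.

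The 402 genes of the lenient rule describe the breadth of the difference. Medians were 0.57 above normal and 0.67 above inflamed mucosa for the 227 higher genes, and -0.58 and -0.83 for the 175 lower genes. At least 2-fold against both were 60 of the higher and 13 of the lower genes. All 12 lesion arrays lay beyond all 6 others for 70 higher genes (30.8%) and 65 lower genes (37.1%), against 83 (0.645%) and 90 (0.699%) among all genes, and the rule itself favours such genes. LGD replicate 3 lay above all non-neoplastic arrays for 169 of the 227 higher genes and the 8-week HGD replicate 1 for 170, both together for 138 and neither for 26. Adenocarcinoma replicate 1 did so for 165, and the other 9 lesion arrays for 200 to 227. For the lower genes the range was 119 of 175 in adenocarcinoma replicate 1 to 174. LGD replicate 3 and the 8-week HGD replicate 1 are the arrays whose Wnt targets were near the level of normal mucosa. The 227 genes were called on a lesion mean that includes both, which favours genes raised on them. The count of 138 is therefore partly set by the selection. Whether these increases depend on the level of Wnt targets was not tested.

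What acute inflammation did to these genes was described from inflamed against normal mucosa, where 22.5% of all genes were higher and 24.3% lower, together 46.8%. Of the 227 higher genes, 198 did not pass that comparison and 181 of those differed by less than 0.5. A fall in inflamed mucosa was called for 27, among them Idi1, Fasn, Nsdhl, Mad2l1, Prom1 and Tmed6, and a rise for 2, Wfdc18 and Ppp1r14b. Of the 175 lower genes, 58 were higher in inflamed than in normal mucosa, 3 were lower (Dgkh, Syn2 and Myl6), and 114 did not pass.

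The 12 largest increases by the smaller of the 2 differences were Defa31, Mt4, Pnliprp1, Wif1, Mmp7, Slc30a2, Pnliprp2, Sptssb, Tex15, Sbspon, Prox1 and Spock2. Ranking genes of the lenient rule in this way was decided after the counts were seen. Defa31 was at 6.19, 6.25 and 6.31 in normal and 6.70, 6.55 and 6.72 in inflamed arrays. In lesions it was 12.28, 11.96 and 9.33 in LGD, 12.26, 12.48 and 12.08 in HGD at 6 weeks, 7.60, 14.05 and 14.08 in HGD at 8 weeks, and 12.24, 14.20 and 12.93 in adenocarcinoma. The 2 lowest lesion values belong to the arrays with low Wnt targets and still lie above all non-neoplastic arrays. The difference was 5.87 ± 1.01 from normal (adjusted p = 0.0050) and 5.46 ± 1.01 from inflamed mucosa (adjusted p = 0.00046, limma). Its probe set is of a kind that can bind related transcripts, and defensin genes are near-identical copies, so the value may belong to several of them.

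Mt4, a metallothionein known from squamous epithelium, was 5.41 ± 1.10 above normal and 5.66 ± 1.10 above inflamed mucosa. It was at 5.17 to 6.29 in the 6 non-neoplastic arrays and 8.27 to 13.29 in 11 lesions, with 6.09 in the 8-week HGD replicate 1. The keratins and other squamous genes of a list of 6 did not pass both comparisons (0 higher, 0 lower). All 6 lay above both mucosae in their means, as did 25.8% of all genes, and 2 were higher than inflamed mucosa (27.3% of all genes). Krt14 was 1.88 above normal and 1.66 above inflamed mucosa. The summed signal of the list was 320 to 346 in normal, 305 to 403 in inflamed and 365 to 1730 in lesion arrays. Whether squamous cells take part was not tested. The pancreatic lipase relatives Pnliprp1 and Pnliprp2 rose by 4.80 ± 1.25 and 3.59 ± 1.00 over normal and by 5.07 ± 1.25 and 3.96 ± 1.00 over inflamed mucosa. Of the acinar list only 2 genes were measured, and Cela1 was lower than normal and higher than inflamed mucosa, at 12.28 to 12.43, 8.75 to 9.31 and 9.80 to 12.06. The zinc transporter gene Slc30a2 rose by 3.88 ± 0.93 and 4.03 ± 0.93, and the germ cell gene Tex15 by 3.32 ± 0.69 and 3.58 ± 0.69. Tex15 lay at 4.91 to 5.48 in the 6 non-neoplastic arrays and at 5.51 to 10.11 in all lesions.

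**Figure D4:**
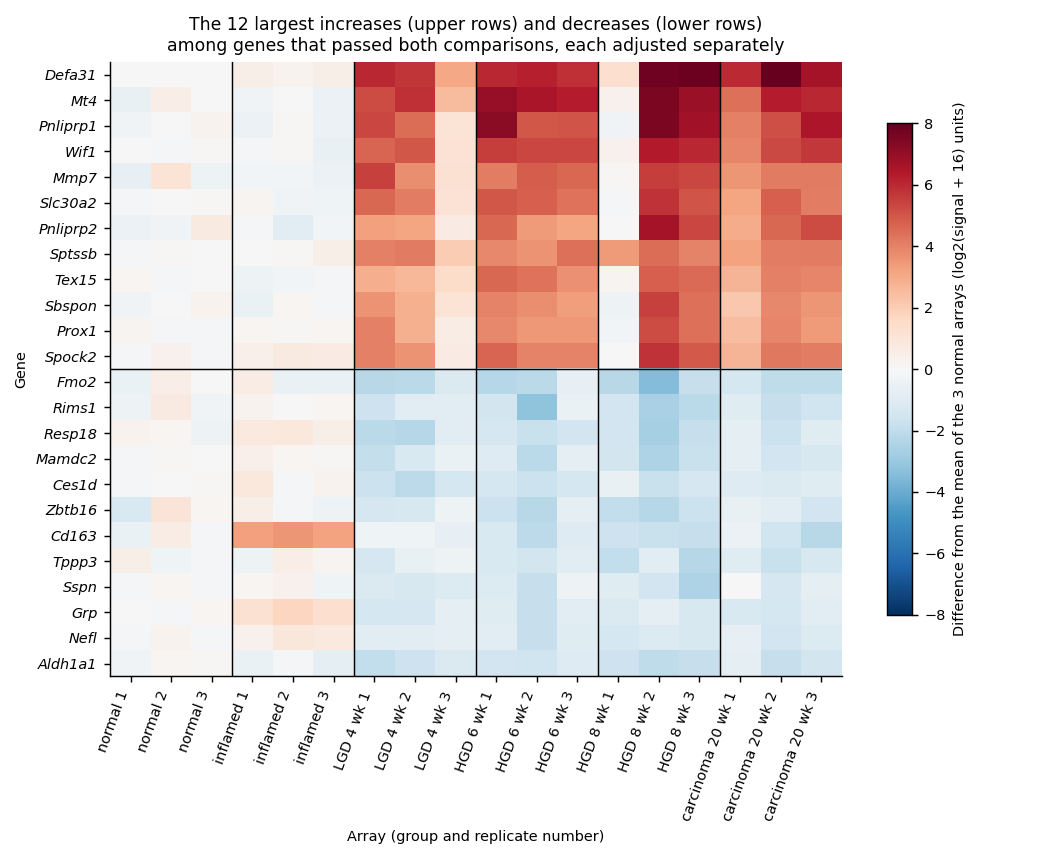
Difference of each array from the mean of the 3 normal arrays, in log2(signal + 16) units, for the 12 largest increases and 12 largest decreases of the lenient rule. On the 8-week HGD replicate 1 most of the increases are near 0, with Sptssb a clear exception (8.10 against 4.59 to 4.77 in normal arrays), and Cd163 and Grp are above normal in inflamed mucosa and below it in lesions.

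Of 23 measured Wnt targets and feedback genes, 9 rose by the lenient rule and 0 fell, against 1.76% and 1.36% of all genes. List medians were 1.36 above normal and 2.24 above inflamed mucosa. Higher than normal were 11 members (5.7% of all genes) and higher than inflamed mucosa 18 (27.3% of all genes), while 2 were lower than inflamed mucosa. The feedback inhibitor Wif1, which binds Wnt ligands outside the cell, showed the largest difference of the list. It was at 5.73, 5.52 and 5.78 in normal arrays and 5.58, 5.79 and 5.07 in inflamed arrays. Lesions gave 10.36, 10.63 and 6.82 in LGD, 11.20, 11.03 and 11.02 in HGD at 6 weeks, 5.99, 12.01 and 11.68 in HGD at 8 weeks, and 9.56, 10.98 and 11.32 in adenocarcinoma. All lesions were above all others, with the smallest margins in LGD replicate 3 and the 8-week HGD replicate 1. Differences were 4.54 ± 1.00 (adjusted p = 0.0134) and 4.74 ± 1.00 (adjusted p = 0.0012, limma). By the stricter rule 0 of the 23 listed genes passed, and Wif1 had an adjusted p of 0.114 (limma).

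Axin2, the scaffold of the beta-catenin destruction complex, was 1.83 ± 0.56 above normal and 2.82 ± 0.56 above inflamed mucosa (adjusted p = 0.0464 and 0.00076), with 7.72 to 7.86 in normal, 6.69 to 7.01 in inflamed, 7.45 and 8.10 in the 2 arrays that stood apart and 9.18 to 11.12 in the other lesions. Its call was kept in only 4 of the 18 fits that left out an array. Notum, which removes the lipid that Wnt ligands need, was 2.72 above normal and 2.84 above inflamed mucosa and kept its call in 8 of 18. Apcdd1, a membrane inhibitor of Wnt, was 3.60 and 2.25 above them. Of the transcription factors, Sp5 rose by 2.82 and 2.26, Prox1 by 3.13 and 3.00, and Myc by 0.58 and 0.76. The receptor gene Tnfrsf19 rose by 2.21 and 2.54, and the protease gene Mmp7 by 3.89 and 4.20. On LGD replicate 3 and the 8-week HGD replicate 1, Apcdd1 was at 6.71 and 6.53 and Sp5 at 5.81 and 5.61. Prox1 was at 6.33 and 5.48 there, and Tnfrsf19 at 6.28 and 5.89. On the 8-week HGD replicate 1 none of Apcdd1, Sp5, Prox1 and Tnfrsf19 lay above all non-neoplastic arrays.

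Members that did not pass include Lgr5, the receptor that marks crypt base stem cells, at 1.45 ± 0.72 and 2.27 ± 0.72 (adjusted p = 0.189 against normal), Nkd1 at 2.17 and 2.29 (adjusted p = 0.0544 against normal), and Sox9, at 0.39 and 2.45. Cd44 was above normal by 1.17 and below inflamed mucosa by 0.61, so it falls among the genes between both. The count is sensitive to single arrays in both directions. It was 15 of 23 without LGD replicate 3, 17 without the 8-week HGD replicate 1 and 20 without both. It was 0 without any of the 3 normal arrays, when fewer of all genes passed, and 1 and 5 without the whole groups of 6-week HGD and adenocarcinoma.

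The mean of 13 sterol synthesis genes was 0.229 to 0.703 relative to normal on the 12 lesion arrays, with 0.653 and 0.321 on LGD replicate 3 and the 8-week HGD replicate 1, -0.11 to 0.135 on normal and -0.617 to -0.517 on inflamed arrays. Of 13 measured genes, 8 rose against both mucosae (1.76% of all genes) and 0 fell. All 13 were higher than inflamed mucosa (27.3% of all genes) and 8 higher than normal mucosa (5.7% of all genes), so the calls turned on normal mucosa. Medians were 0.54 above normal and 1.02 above inflamed mucosa. Along the pathway these were Mvd and Idi1, which make and isomerise the isoprene unit, Fdps and Fdft1, which join the units up to squalene, Sqle, which oxidises squalene, Cyp51 and Nsdhl, which remove methyl groups from the ring, and the regulator Srebf2. Idi1 was at 9.16, 9.27 and 9.57 in normal, 8.42, 8.53 and 8.75 in inflamed and 9.45 to 10.56 in lesion arrays. Only the 8-week HGD replicate 2, at 9.45, fell within the normal range. Differences were 0.77 ± 0.14 (adjusted p = 0.0061) and 1.54 ± 0.14 (adjusted p = 1.07e-06, limma). Against normal mucosa the 7 others besides Idi1 ran from 0.54 for Srebf2 and Fdft1 to 1.02 for Cyp51.

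For Cyp51, Srebf2, Nsdhl and Mvd all 12 lesions were above all 6 others. Nsdhl was at 8.29 to 8.33 in normal, 7.81 to 7.92 in inflamed and 8.57 to 9.18 in lesion arrays, and Mvd at 6.85 to 7.47, 6.66 to 6.91 and 7.53 to 8.27. The 5 members that did not pass against normal mucosa were Hmgcs1 (0.23), Insig1 (0.28), Lss (0.29), Sc5d (0.10) and Dhcr7 (-0.27), and these had fallen in inflamed mucosa except Lss, whose fall did not pass. Inflamed mucosa was lower than normal for 7 of the 13 genes (24.3% of all genes), in parallel with its lower epithelial signal, and that part was not tested. The count was 8 also without either of the arrays with low Wnt targets and without both, and 4, 2 and 7 without normal replicates 1, 2 and 3. Fasn, the fatty acid synthase and no member of the list, was at 8.65 to 8.99 in normal and 7.42 to 7.82 in inflamed arrays and had a median of 9.46 in lesions, all 12 of which lay above all others.

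Genes of growth were read against the shares of all genes, of which 27.3% were higher than inflamed mucosa and 1.76% higher than both. Of 19 mitosis genes 18 were higher than inflamed mucosa, where 18 were lower than normal, but only Plk1, a mitotic kinase, rose against both, by 0.41 ± 0.12 and 1.20 ± 0.12. Mki67, a marker of cycling cells, differed from normal by -0.06 ± 0.15 (adjusted p = 0.835). Of 20 DNA replication genes Mcm2, Mcm7 and Gins1, parts of the replicative helicase, rose against both, Mcm2 by 0.56 ± 0.15 and 0.80 ± 0.15. Mcm2 was at 8.58 to 8.84 in normal, 8.39 to 8.54 in inflamed and 8.86 to 9.71 in lesion arrays, so the groups only just separated. Without LGD replicate 3 the replication count was 8, and it was 0 without any normal array. The spindle checkpoint gene Mad2l1, on no list, rose by 0.72 ± 0.15 and 1.23 ± 0.15 without overlap. Ribosome biogenesis contributed Nop56 and Nop2 of 20 genes, while 8 were higher than normal and 7 than inflamed mucosa. Single arrays decided several of these calls. Of the 18 fits without an array, Plk1 passed in 7, Mcm7 in 8 and Nop2 in 4, against 15 for Mcm2 and Nop56 and 14 for Gins1.

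Against both mucosae 1.76% of all genes rose and 1.36% fell, which are the shares for each list of this paragraph. Of 15 genes of ERK feedback and EGFR ligands, Dusp4 and Etv5 rose and Spry2 fell, so the list did not move in 1 direction. Higher than normal mucosa were 5 members and lower 1 (5.7% and 6.83% of all genes). Higher than inflamed mucosa were 5 and lower 6 (27.3% and 23.8% of all genes). Dusp4 was 2.08 ± 0.45 above normal and 1.42 ± 0.45 above inflamed mucosa. Spry2 was at 9.35 to 9.53 in normal, 9.69 to 10.10 in inflamed and 8.59 to 9.24 in all lesion arrays, a difference of -0.48 ± 0.13 and -0.97 ± 0.13. Of 12 crypt stem and progenitor genes, Prom1 rose in all lesions, from 10.63 to 11.12 in normal and 9.99 to 10.64 in inflamed to 11.30 to 12.08 in lesion arrays. Lrig1, a brake on growth factor receptors, fell by 0.63 ± 0.13 and 0.52 ± 0.13. Another probe set of Lrig1 differed by -0.61 and -0.71, but a dimmer one by 0.11 and 0.13, so the fall depends on the probe set. Without both arrays with low Wnt targets 7 of the 12 were higher and 1 lower. Bmp2, a ligand of the pathway that restrains crypt growth, fell in all 12 lesions, from 10.57 to 11.19 in normal and 10.31 to 10.89 in inflamed to 8.89 to 10.29 in lesion arrays, and was the only 1 of 11 genes of its list.

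Of 7 Paneth cell and antimicrobial genes Defa31 and Mmp7, which cleaves defensins to their active form, rose against both (1.76% of all genes). Mmp7 is also counted on the Wnt list and among the matrix proteases, and the Defa31 value may belong to several defensins. Mmp7 stood at 5.86, 7.62 and 6.12 in normal and 6.08 to 6.30 in inflamed arrays, at 6.64 and 7.74 in the arrays with low Wnt targets, and at 10.04 to 12.08 in the other lesions. Lyz1, the lysozyme that defines Paneth cells, was 0.50 above normal and 0.20 below inflamed mucosa, and Reg3b was 5.06 above normal without passing against inflamed mucosa (1.34). Reg3g, at 4.08 and 2.16, passed neither comparison. The summed signal of the list was 11700 to 19900 in normal, 16600 to 24200 in inflamed and 16300 to 65400 in lesion arrays. Whether Paneth cells account for these levels was not tested. Of 12 mast cell genes the mucosal protease Mcpt2 rose, by 3.11 ± 0.86 and 2.87 ± 0.86 (1.76% of all genes rose). The receptor Kit, which interstitial pacemaker cells also carry, fell by 0.69 and 0.47 (1.36% of all genes fell). Mcpt2 ranged from 6.38 to 12.38 among lesions, so its level depended much on the array. Mcpt1 at 2.82 and 2.31 and Cpa3 at 1.26 and 0.61 did not pass against normal mucosa.

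**Figure D5:**
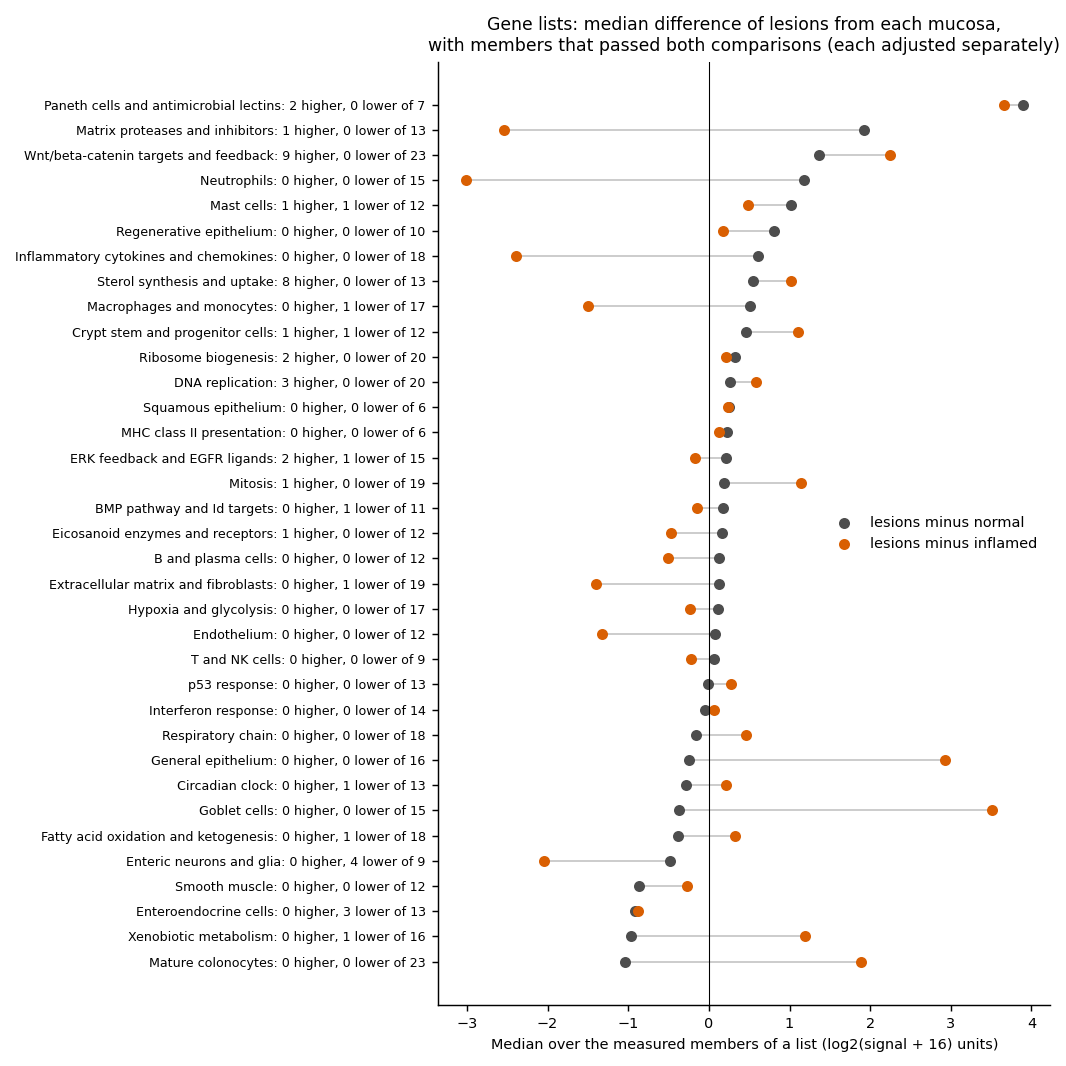
Median over the measured members of each gene list with at least 5 members, for lesions minus normal (grey) and lesions minus inflamed mucosa (orange), with the number of members that passed both comparisons. Only the Paneth, Wnt and sterol lists had both medians above 0.5, and only the enteroendocrine list had both below -0.5.

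The 12 largest decreases by the same ranking were Fmo2, Rims1, Resp18, Mamdc2, Ces1d, Zbtb16, Cd163, Tppp3, Sspn, Grp, Nefl and Aldh1a1. Fmo2, a flavin monooxygenase of drug metabolism, was at 9.75, 10.82 and 10.28 in normal, 10.88, 9.73 and 9.75 in inflamed and 6.84 to 9.62 in lesion arrays. The difference was -1.97 ± 0.40 (adjusted p = 0.0097) and -1.80 ± 0.40 (adjusted p = 0.0018, limma), with no overlap. Resp18, of secretory granules of neuroendocrine cells, was at 8.02 to 8.72, 8.89 to 9.28 and 5.81 to 7.70. Rims1, of the presynaptic release site, was at 8.91 to 10.00, 9.26 to 9.58 and 6.07 to 8.80.

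Of 9 measured genes of enteric neurons and glia, 4 fell against both mucosae (1.36% of all genes) and 0 rose. These were Elavl4, an RNA-binding protein of neurons, Prph and Stmn2, of the neuronal cytoskeleton, and Snap25, of synaptic vesicle fusion. Snap25 was at 6.88, 7.50 and 6.68 in normal arrays and 8.32, 8.59 and 8.59 in inflamed arrays. Its lesion values were 6.21, 6.13 and 6.19 in LGD, 6.35, 5.41 and 6.31 in HGD at 6 weeks, 5.87, 5.56 and 6.01 in HGD at 8 weeks, and 6.46, 5.95 and 6.37 in adenocarcinoma. All lesions were below all others, at levels near the dim end of the arrays. The difference was -0.95 ± 0.20 (adjusted p = 0.0098) and -2.43 ± 0.20 (adjusted p = 3.72e-07, limma). All 9 genes of the list were higher in inflamed than in normal mucosa (22.5% of all genes), so the fall from inflamed mucosa is the larger. All 9 were also lower in lesions than in inflamed mucosa (23.8% of all genes). The calls against both therefore turned on normal mucosa, than which 4 were lower (6.83% of all genes). The glial genes Sox10 and Gfap differed from normal by -0.01 and 0.20 and did not pass. The count was 3, 0 and 2 without normal replicates 1, 2 and 3, and Stmn2 kept its call in only 6 of 18 fits without an array.

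Nefl, the light neurofilament, and Grp, a peptide of enteric neurons, are on no list and fell in all lesions. Grp was at 7.31, 7.24 and 7.50 in normal, 8.58, 9.06 and 8.67 in inflamed and 5.49 to 6.61 in lesion arrays, a difference of -1.15 ± 0.20 and -2.57 ± 0.20. Of 13 enteroendocrine genes Scg2, Scg3 and Cpe, of hormone granules, fell, against 1.36% of all genes. Scg3 was at 6.94 to 6.97 in normal, 7.60 to 7.94 in inflamed and 6.22 to 6.79 in all lesion arrays. Neurons and endocrine cells share these granule genes. Of the hormones, Gcg differed from normal by -1.89 (adjusted p = 0.156), Insl5 by -2.37 (adjusted p = 0.133) and Sst by -0.72 (adjusted p = 0.0717, limma). From inflamed mucosa these 3 differed by -0.43, 0.77 and -3.05. Pyy differed by -0.99 from normal and 1.23 from inflamed mucosa (adjusted p = 0.189 and 0.0492, limma), so the hormones did not all fall against both. In their means 10 of the 13 genes lay below both mucosae. The count was 1, 1 and 2 of 13 without normal replicates 1, 2 and 3, and 6 without both arrays with low Wnt targets.

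Smooth muscle genes were examined beside the neuronal ones. All 12 smooth muscle genes lay below both mucosae in their means, as did 21.6% of all genes (25.8% lay above both, together 47.5%), with medians of -0.87 from normal and -0.27 from inflamed mucosa, but 0 of 12 passed both comparisons. The summed signal of the list was 38300 to 56100 in normal, 29200 to 38000 in inflamed and 12900 to 49500 in lesion arrays, and the part of sampled muscle in the neuronal decreases was not tested. The sum over the 9 neuronal genes was 817 to 1190, 2620 to 3710 and 481 to 833. The 2 list means differed in sign on adenocarcinoma replicate 1, at 0.16 for smooth muscle and -0.34 for neurons relative to normal. On the 6-week HGD replicate 2 both were the lowest of the lesion arrays, at -2.23 and -0.74.

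Among other single genes, Cd163, a scavenger receptor of resident macrophages, was at 6.89 to 8.01 in normal, 10.65 to 10.95 in inflamed and 5.19 to 7.04 in lesion arrays. It fell by 1.27 ± 0.30 from normal (adjusted p = 0.0185) and was the only macrophage gene of 17 to do so, while 5 of the 17 were above normal and below inflamed mucosa. Aldh1a1, which makes retinoic acid, fell by 1.54 ± 0.22 and 1.07 ± 0.22 and alone of 16 xenobiotic genes. Acaa2 of 18 fatty acid oxidation genes and Postn of 19 matrix and fibroblast genes also fell. Over all genes 1.36% fell and 1.76% rose against both mucosae. Higher than inflamed mucosa were 12 of the 16 xenobiotic and 12 of the 18 fatty acid oxidation genes, against 27.3% of all genes. Arntl, of 13 clock genes, differed by -1.06 ± 0.22 (adjusted p = 0.0111) and -0.58 ± 0.22 (adjusted p = 0.0421, limma), but passed in only 5 of 18 fits without an array, and its smaller difference in LGD alone was -0.07. Another probe set of Arntl differed by -0.68 from normal and -0.02 from inflamed mucosa. As the core activator of the clock Arntl depends on the hour of sampling, which the labels do not give. Alox12 of 12 eicosanoid genes rose by 2.64 ± 0.68 and 1.95 ± 0.68. Avil of 4 tuft cell genes rose by 1.49 ± 0.40 and 1.07 ± 0.40 (kept in 7 of 18 fits without an array). Mmp7 was the only 1 of 13 matrix proteases and inhibitors to rise. Most members of these lists were lower than inflamed mucosa, namely 7 of 12, 3 of 4 and 10 of 13, against 23.8% of all genes.

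Lists of which no member passed both comparisons were mature colonocytes (23 genes), goblet cells (15), general epithelium (16), the respiratory chain (18), neutrophils (15), cytokines and chemokines (18), T and NK cells (9), B and plasma cells (12), endothelium (12), the interferon response (14), MHC class II (6), the p53 response (13), hypoxia and glycolysis (17), regenerative epithelium (10), adipocytes (3), erythroid cells (1) and acini (2). Colonocyte genes had medians of -1.04 from normal and 1.88 from inflamed mucosa, goblet cell genes -0.37 and 3.51, and neutrophil genes 1.18 and -3.01. Muc2, the goblet cell mucin, was at 13.03 to 13.51 in normal, 6.05 to 11.70 in inflamed and 12.33 to 13.94 in lesion arrays, with a difference of -0.27 ± 0.72 from normal. Ptgs2, the inducible cyclooxygenase, differed by 0.65 ± 0.81 from normal and -2.54 ± 0.81 from inflamed mucosa, and the colonocyte carbonic anhydrase Car4 by -2.27 ± 1.13 and 0.81 ± 1.13.

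Differences among the 4 lesion stages were tested with a moderated F test, a contrast that is orthogonal to lesions against mucosa. Both tests use the same estimate of the spread of a gene, so their p-values are not independent. With limma 0 of 12877 genes passed (smallest adjusted p = 0.0844), while 1064 (8.26%) had an unadjusted p under 0.05. Of the 402 genes 30 did (7.46%), close to the share of all genes. In 226 of the 227 higher and 175 of the 175 lower genes all 4 stage means lay beyond both mucosae, against 13.2% and 10% of all genes, a count that selection on the mean of the same lesion arrays largely sets. Sptssb passed by the stricter rule within each stage taken alone, at a size of 3.19 in LGD, 3.74 at 6 weeks, 3.74 at 8 weeks and 3.62 in adenocarcinoma (adjusted p = 0.0240, 0.0112, 0.0112 and 0.0165). Myl7 and Cyp51 passed so in LGD and in HGD at 6 weeks. Over all genes this rule called 3 higher (0.0233%) and 1 lower (0.00777%) in LGD, 3 higher and 0 lower at 6 weeks, and 1 higher (0.00777%) and 0 lower both at 8 weeks and in adenocarcinoma. By the lenient rule LGD gave 82 higher (0.637%) and 38 lower (0.295%), HGD at 6 weeks 30 (0.233%) and 17 (0.132%), HGD at 8 weeks 159 (1.23%) and 170 (1.32%), and adenocarcinoma 15 (0.116%) and 11 (0.0854%), each from 3 lesion arrays. The stage test made 13 calls without LGD replicate 3 and 6 without the 8-week HGD replicate 1, so the count of 0 rests on these arrays too.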

How the data were processed

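RNA from 18 colorectal samples was hybridised to Affymetrix Mouse Genome 430 2.0 arrays. The deposited series table holds 1 linear signal intensity per probe set and array (3.39 to 24945, median 56.6), and the authors' processing is named as MAS5 in the submitters' processing notes. No version or scaling target accompanies that name, and scanner files were not used here. Intensities were taken as log2(signal + 16) without further normalization. Of 45101 probe sets, 34945 were paired with 1 gene by the platform annotation (34741 matched by gene identifier), 932 with several and 9160 with none, and 64 are controls. Probe sets above the table median on at least 3 arrays were kept (21653), and each gene was represented by its brightest, which left 12877 genes (5426 had more than 1 passing).

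A model of 6 groups was fitted with limma 3.58.1 in R 4.3.3 (trend and robust moderation, 12 residual degrees of freedom), with Benjamini-Hochberg adjustment over all genes, two-sided, threshold 0.05. P-values measure the spread between samples described as biological replicates. Data of 12877 genes were simulated with 50 genes per step. The larger-p rule recovered 30% of steps of 0.5, 76% of 1, 94% of 2 and 98% of 4 log2 units. It made 1 false call. The simulation gave normal and inflamed mucosa the same mean and all lesions the same shift. In the real arrays 46.8% of genes differed between these mucosae, so the rates and the false calls do not carry over to such genes.

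The members and gene lists were chosen with earlier results of these data known. Genes were named by fixed rules: the 12 largest changes each way by the smaller difference, up to 4 called members per list, 8 fixed genes, and up to 6 genes by what inflamed mucosa did. Extending these rules to the lenient calls was decided after values were seen, as was naming further list members. The same replicate number did not pair samples. In all, 16 alternatives and 18 single-array omissions were run. Promoter sequences are from RefSeq.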

Additional observations from a re-analysis of the deposited data

Results flagged for a closer look

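Outside the genes named here, 15 probe sets that the annotation pairs with several genes or with none also passed against both mucosae by the larger p (11 higher and 4 lower, of 3381 that passed the intensity filter), and no comparison above uses them. The largest was 1450709_at, 6.80 ± 1.20 (SE) above normal and 6.74 ± 1.20 above inflamed mucosa (adjusted p = 0.0336, limma), followed by 1422422_at at 6.02 and 5.85 (adjusted p = 0.0403) and 1420598_x_at at 5.33 and 4.98 (adjusted p = 0.0336). Their genes are not named here.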

How the results depend on the processing

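The count of 7 genes against both mucosae was 55 with array weights, 15 with 3 classes in place of 6 groups, 4 and 46 without the LGD and the 8-week HGD group, 380 without both arrays with low Wnt targets (an alternative chosen after seeing the data) and 402 with each comparison adjusted separately. With single arrays left out it ran from 1 to 200. The 1614 genes against normal became 3220 with array weights, 1031 without the 6-week HGD group, 3023 without both low-Wnt arrays, and 226 to 2366 with single arrays left out. The 6573 against inflamed mucosa stayed within 5250 to 7020 when single arrays were left out. The 4307 against all non-neoplastic mucosa became 2204 with 2 classes and 3400 to 4917 without single arrays. The stage count of 0 became 1 and 5 without the LGD and 8-week HGD group, 28 without both low-Wnt arrays, and 0 to 13 without single arrays. The lenient count of 402 became 783 with array weights, 210 without the 6-week HGD group and 976 without both low-Wnt arrays, of which 389 were among the 402. The cause of these shifts was not tested.

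With the replicate number as a block, the counts were 4 (all among the 7), 1290, 6405, 4105 and 0, and 329 for the lenient rule. Deviations of same-numbered arrays correlated with a median r of -0.0013 (-0.462 to 0.331), and 4 of 18 arrays were closest to their own number, so the numbers did not pair the samples. Of single genes, 7 differences changed sign. Eda2r against normal was -0.0324 without the adenocarcinoma group. With single arrays left out, the difference from inflamed mucosa ran from -0.0581 to 1.38 for Car4 and from -0.0468 to 0.357 for H2-Ab1, and that from normal mucosa from -0.124 to 0.0289 for Mki67, -0.208 to 0.0371 for Retn, -0.0709 to 0.351 for Sdha and -0.00798 to 0.468 for Spink4.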
